A study of Mus musculus with 6 samples.

Results

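The TALE homeobox cofactors of Hox were examined in LSK cells, the Lin- Sca1+ c-Kit+ bone marrow cells in which haematopoietic stem cells and multipotent progenitors are found. The genes were Meis1, Meis2, Meis3, Pbx2, Pbx3, Pbx4, Pknox1, Pknox2 and Tgif1, and every probe set that the platform annotation gave to 1 of these 9 genes alone was taken. That rule, which used no measured value, gave 21 of the 45037 probe sets on the array and 9 of the 18193 genes with a single-gene probe set. LSK cells of wild-type (WT) C57BL/6 mice were compared with those of C57BL/6 mice homozygous for IkL, a hypomorphic allele of Ikzf1 that leaves the cells short of Ikaros, a zinc finger transcription factor. The mice were 6 to 7 weeks old, and each genotype had 3 arrays. RNA of a WT sample came from 1 mouse, and RNA of an IkL/L sample from cells of 2 mice that had been pooled for sorting, so the groups also differed in the number of mice behind an array. From each sample 100 ng of total RNA was labelled in 2 cycles and hybridised to an Affymetrix array of the mouse genome.

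TALE proteins carry a homeodomain with an extra loop of amino acids between its first helices. MEIS and PBX proteins bind DNA together with HOX proteins and sharpen the choice of site, and PKNOX (PREP) proteins dimerise with PBX proteins in a similar way and compete with MEIS for them. In blood, Meis1 and Hoxa9 are known for maintaining stem and progenitor cells and for driving leukaemia when they are overexpressed, whereas TGIF1 is a repressor that recruits corepressors to retinoid and TGF-beta target genes.

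Values are log2 RMA intensities, and a difference is the IkL/L mean minus the WT mean on that scale. Array medians lay between 4.79 and 4.88, and a value under them cannot be told from background because RMA gives no detection call. Ikzf1 itself was read by 2 probe sets. The brighter one gave 11.57, 11.59 and 11.44 on the WT arrays and 10.77, 10.85 and 10.93 on the IkL/L arrays, a fall of 0.68 (fold 0.623, limma adjusted p = 0.0307). The dimmer one gave 5.87, 5.86 and 5.95 in WT and 5.56, 5.69 and 5.81 in IkL/L, a difference of -0.21 (adjusted p = 0.622). Of the LSK markers, Kit, Cd34, Flt3 and Gata2 were above the array median on all 6 arrays, and the gene of Sca1, Ly6a, was not measured by a single-gene probe set. Markers of other cell types were not equal across the arrays. The mean over 6 stromal markers was 6.41, 5.70 and 5.17 on WT 1, WT 2 and WT 3 and between 4.83 and 5.04 on the IkL/L arrays. The mean over 3 B cell markers was 5.22 to 5.38 in WT and 6.09 to 6.72 in IkL/L, through Ms4a1, which rose by 2.38 (adjusted p = 0.0165), while Cd79a and Cd79b differed by 0.23 and 0.40. The mean over 4 erythroid markers was 5.39 to 5.53 in WT and 5.68 to 5.90 in IkL/L, with 0 past the threshold. Klf1 and Epor differed by 1.01 and 0.36 with the groups separated. Hba-a1 and Alas2, under the array medians, differed by 0.08 and -0.14. Of 4 mature myeloid markers 0 passed, and S100a8 varied most, from 4.85 on WT 2 to 8.35 on IkL/L 1. It differed by 1.52, S100a9 by 0.48, Itgam by -0.13 and Csf3r by -0.00028. The part of these other cell types in the values of the cofactors was not tested. Leaving out single arrays is no such test, since it keeps a marker difference that runs between the groups.

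None of the 21 TALE probe sets passed the test for a difference between the genotypes. By limma 0 of 21 passed an adjusted p of 0.05, against 0.557% of all probe sets, and 1 of 21 had an unadjusted p under 0.05, against 8.84% of all. Read by gene, from the brightest single-gene probe set, 0 of 9 passed, against 0.989% of all genes. The WT and IkL/L arrays did not overlap for 1 of the 21, a Meis2 probe set, where 14.4% of all probe sets were so separated. The median size of the difference was 0.04 over the 21 and 0.10 over all probe sets. The largest size was 0.38, and 3.58% of all probe sets exceeded 0.5. The p-values measure the spread between 3 samples a group, and in bulk RNA fewer cells of a type and less RNA per cell cannot be told apart.

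**Figure D1:**
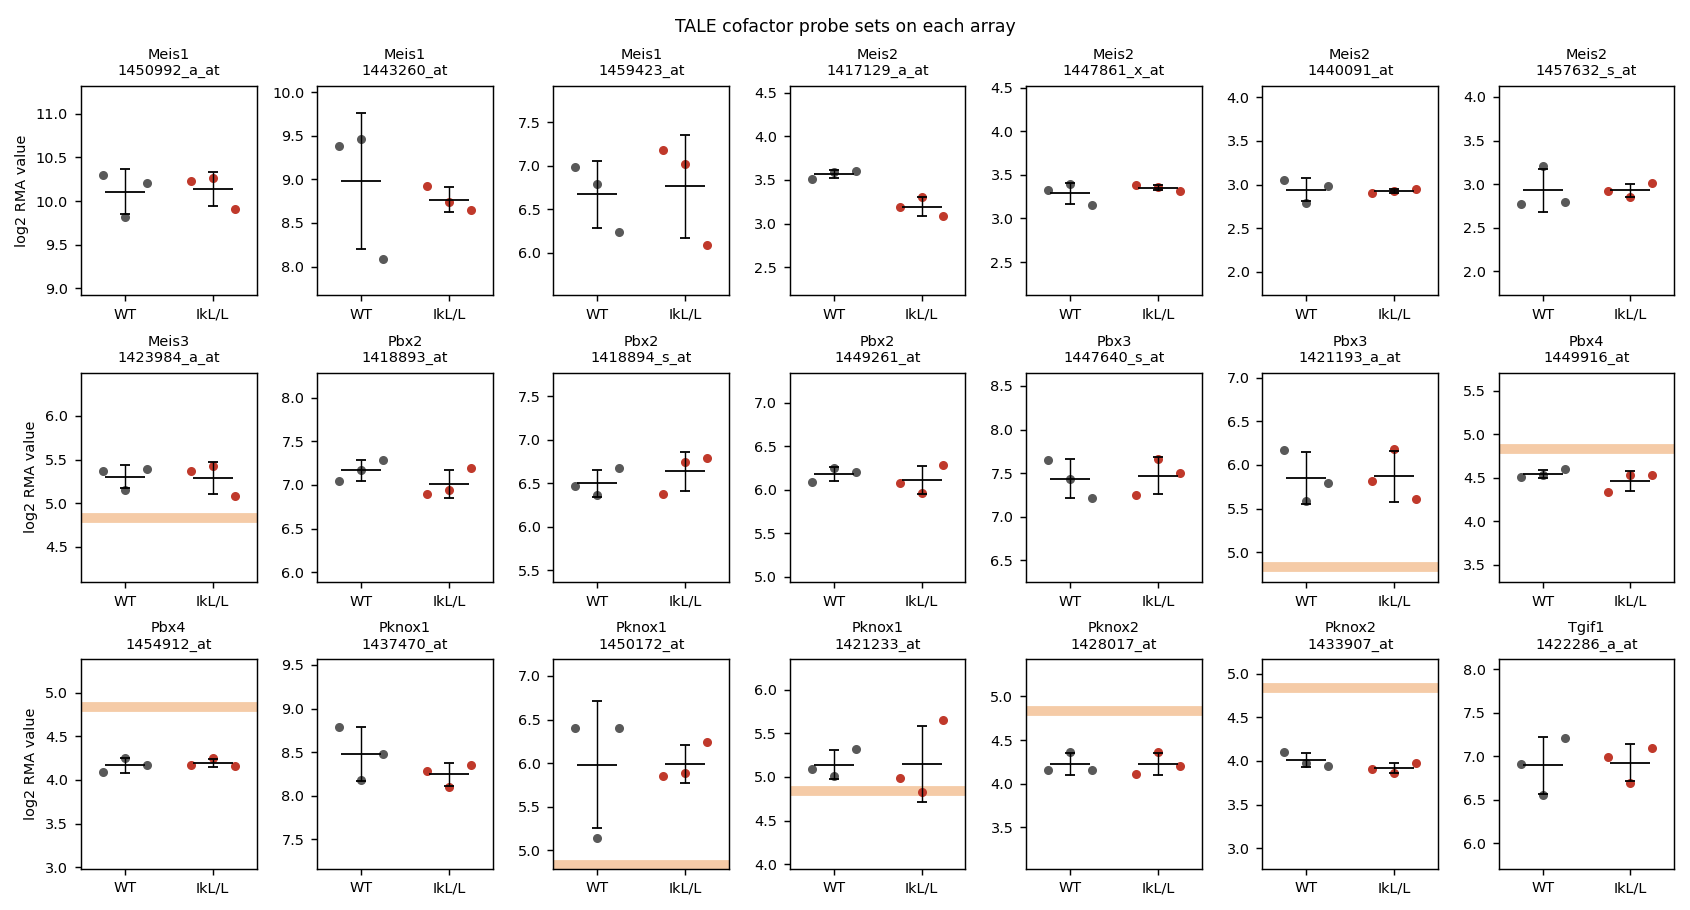
Log2 RMA value (vertical axis, a span of the same size in every panel) of the 21 TALE probe sets on the 3 WT (grey) and 3 IkL/L (red) arrays, with the group mean and SD as black bars and the range of the array medians as an orange band where it falls in the panel. In all panels but that of Meis2 1417129_a_at the groups overlap, and the 4 Meis2, 2 Pbx4 and 2 Pknox2 probe sets lie under the band.

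The 95% intervals show how large a difference in RMA value the 6 arrays could have hidden. They were read for the 13 probe sets above the array median on all arrays, those of Meis1, Meis3, Pbx2, Pbx3, Pknox1 and Tgif1. Meis3 1423984_a_at and Pknox1 1421233_at were little above the medians, where an interval of the value may not bound a change of the RNA. For all 13 the interval stayed within a 2-fold change either way, as it did for 94% of all probe sets above the medians. For 9 of the 13 it stayed within 1.5-fold, against 72.6%. The intervals that reached further were those of Meis1 1443260_at and 1459423_at and of Pknox1 1437470_at and 1450172_at. The median of the interval's half-width was 0.37 for the 13 and 0.30 for all probe sets above the medians, and the median SD in WT was 0.26 against 0.16. The other 8 probe sets, of Meis2, Pbx4 and Pknox2, read at background, where intervals are narrow but set no bound on a change of the RNA.

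**Figure D2:**
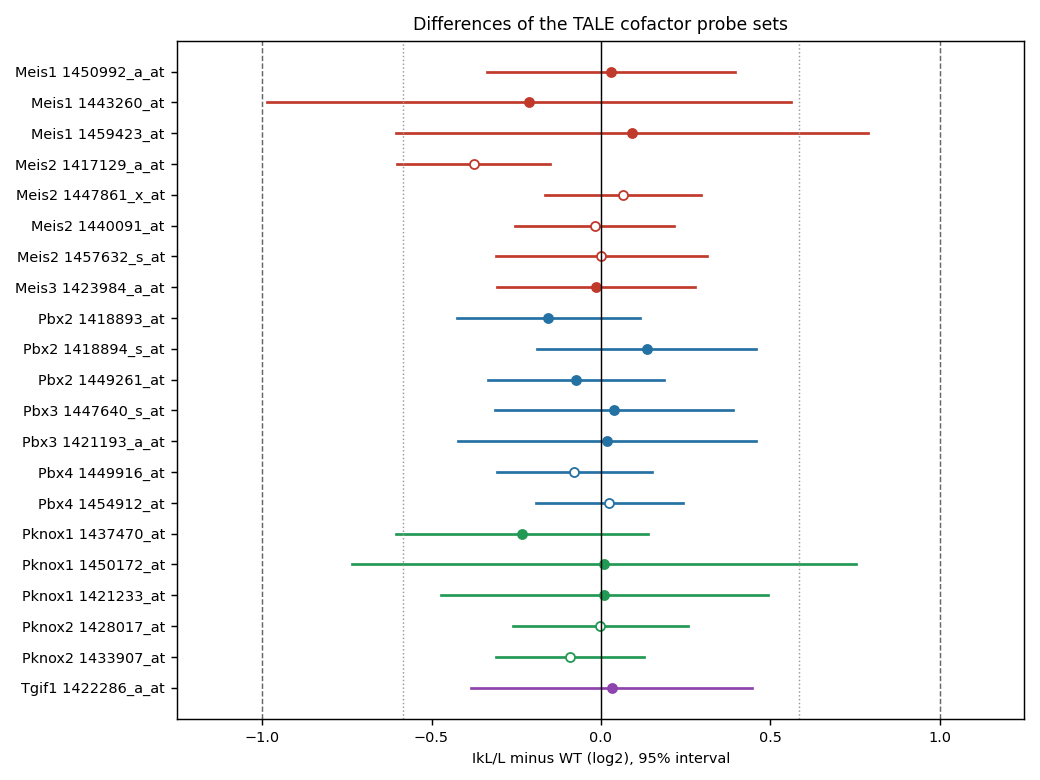
Difference between IkL/L and WT (horizontal axis, log2) of each TALE probe set with its 95% interval from limma (lines), with dashed lines at a 2-fold and dotted lines at a 1.5-fold change and open points for probe sets under the array medians. The 13 filled points have intervals inside the dashed lines, the open points set no bound on a change of the RNA, and the interval of Meis2 1417129_a_at is the only one that leaves out 0.

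Meis1, the partner of Hoxa9 in stem and progenitor cells, was above the array medians on all 6 arrays with each of its 3 probe sets. Probe set 1450992_a_at read 10.30, 9.81 and 10.21 on WT 1 to 3 and 10.24, 10.27 and 9.91 on IkL/L 1 to 3. The lowest value was on WT 2 and the next on IkL/L 3, so the groups overlapped fully. The means were 10.11 ± 0.26 in WT and 10.14 ± 0.20 in IkL/L (SD, n = 3), and the difference of 0.03 had an interval of -0.34 to 0.40 (adjusted p = 0.975). On the linear scale that interval runs from 0.793 to 1.32 of the WT value.

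Probe set 1443260_at of Meis1 read 9.39, 9.47 and 8.08 on the WT arrays and 8.92, 8.74 and 8.64 on the IkL/L arrays. WT 1 and WT 2 were the highest of the 6 arrays and WT 3 the lowest. This gave the largest SD among the 21, 0.78 in WT against 0.14 in IkL/L, and a difference of -0.21 with an interval of -0.99 to 0.56 (adjusted p = 0.902). WT 1 and WT 2 were also the arrays with the most RNA of several stromal genes. Col1a2, a chain of type I collagen, read 10.12 and 9.56 there and 7.65 to 8.34 on the other 4. Sparc, a matrix glycoprotein, read 8.48 and 7.21 there and 5.77 to 6.13 on the others, and Col1a1 read 6.36 and 5.47 against 3.75 to 4.43. Cxcl12, by contrast, was high on WT 1 and WT 3, at 6.41 and 5.86, and low on WT 2, at 4.64. Of the 6 stromal markers, 2 were above the array median on all arrays, 0 passed the adjusted threshold, and Col3a1 was at background everywhere, between 2.70 and 3.09. Their part in the value of 1443260_at was not tested. Without WT 2 the difference was 0.03, and without WT 3 it was -0.66 (adjusted p = 0.0884). Without both WT 1 and WT 2, a choice made after the values were seen, it was 0.68 (adjusted p = 0.50). That choice leaves WT 3, the lowest array, as the only WT array, with the spread taken from the IkL/L arrays, and it fixes the sign.

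**Figure D3:**
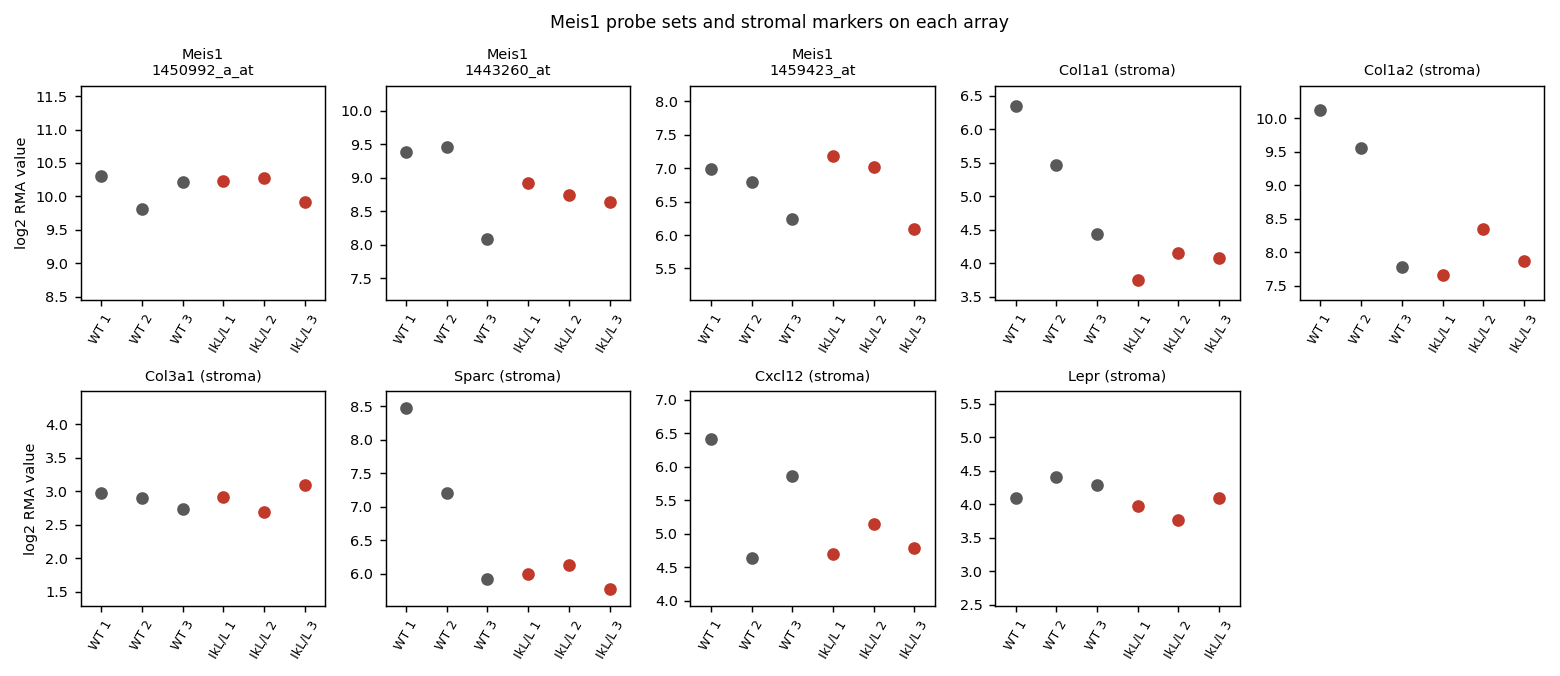
Log2 RMA value (vertical axis, a span of the same size in every panel) on each of the 6 arrays (horizontal axis) for the 3 Meis1 probe sets and the 6 stromal markers, with WT in grey and IkL/L in red. Meis1 1443260_at, Col1a1, Col1a2 and Sparc are highest on WT 1 and WT 2. Cxcl12 is highest on WT 1 and WT 3, Lepr on WT 2 and WT 3, and Col3a1 is at background. Meis1 1450992_a_at is lowest on WT 2.

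The third Meis1 probe set, 1459423_at, read 6.99, 6.79 and 6.24 in WT and 7.18, 7.02 and 6.09 in IkL/L. Each group had 1 low array, WT 3 and IkL/L 3. The difference was 0.09, with an interval of -0.61 to 0.79 (adjusted p = 0.958). The 3 probe sets did not follow one another over the 6 arrays: Pearson's r was -0.24 between 1450992_a_at and 1443260_at, 0.46 between 1450992_a_at and 1459423_at and 0.59 between the remaining pair. These correlations describe the same 6 arrays and carry no test.

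Meis2, a paralogue of Meis1 best known from limb and nervous system development, was under the array medians with all 4 probe sets on all 6 arrays. Probe set 1417129_a_at read 3.51, 3.59 and 3.61 in WT and 3.19, 3.30 and 3.09 in IkL/L. Every IkL/L array was below every WT array, and the difference was -0.38 with an interval of -0.60 to -0.15, but the adjusted p was 0.234. The values lie where RMA cannot tell RNA from background, so they give no level of Meis2. The other probe sets differed by 0.06 (1447861_x_at, interval -0.17 to 0.29), -0.02 (1440091_at, interval -0.25 to 0.22) and 0.00074 (1457632_s_at, interval -0.31 to 0.31), with adjusted p of 0.90, 0.976 and 0.999. Their values ranged from 2.78 to 3.39, with the groups overlapping in each.

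For both Meis genes the promoter is shown, Meis1 as the cofactor with the brightest reading here and Meis2 as the gene of the separated probe set. The windows run from 250 bases before to 50 bases after the transcript start in RefSeq on GRCm38.p6, at chr11:19018920-19019219 (minus strand) for Meis1 and chr2:116064570-116064869 (minus strand) for Meis2, and are written 5′ to 3′ along the gene. Capitals mark GGGAA, the core of the Ikaros site, searched on both strands, and appear as its reverse complement TTCCC where it lies on the other strand.
Meis1: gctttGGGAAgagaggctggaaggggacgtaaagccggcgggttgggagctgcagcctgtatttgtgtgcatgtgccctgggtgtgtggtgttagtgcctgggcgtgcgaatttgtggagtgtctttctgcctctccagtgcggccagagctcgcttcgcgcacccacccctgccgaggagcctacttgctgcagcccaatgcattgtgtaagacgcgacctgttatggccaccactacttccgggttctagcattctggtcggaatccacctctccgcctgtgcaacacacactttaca
Meis2: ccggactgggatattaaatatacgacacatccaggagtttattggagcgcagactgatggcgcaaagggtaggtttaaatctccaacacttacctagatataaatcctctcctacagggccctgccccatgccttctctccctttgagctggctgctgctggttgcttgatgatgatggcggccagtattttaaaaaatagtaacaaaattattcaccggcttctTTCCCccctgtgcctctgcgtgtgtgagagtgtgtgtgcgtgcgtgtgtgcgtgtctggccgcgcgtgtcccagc
Each window held GGGAA at 1 place. AGGAA, the motif that the study names for Ikaros, was in neither of them on either strand. TGACAG, the core of a site bound by MEIS and TGIF proteins, was also in neither. Promoter windows were found for 6 of the 9 genes, 10 windows in all, of which 5 belong to Tgif1. GGGAA was in 9 of the 10, AGGAA in 5 and TGACAG in 2, both of Tgif1. Among 32851 mouse promoters of the same length the shares were 62.7%, 66.7% and 19.2%. A match is a run of letters and not a bound site, and no binding was measured in these samples.

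Meis3, the remaining MEIS gene, had 1 probe set, 1423984_a_at, which read 5.37, 5.15 and 5.39 in WT and 5.36, 5.43 and 5.08 in IkL/L. It was little above the array medians, and the lowest and the highest value both came from IkL/L arrays. Its difference of -0.02 had an interval of -0.31 to 0.28 (adjusted p = 0.984).

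The PBX genes encode the dimer partners of MEIS and PKNOX proteins, which bring PBX into the nucleus. Pbx2, which is widely expressed, had 3 probe sets above the array medians. With 1418893_at it read 7.05, 7.17 and 7.28 in WT and 6.90, 6.94 and 7.19 in IkL/L. IkL/L 1 and IkL/L 2 lay below the WT arrays and IkL/L 3 among them, and the difference of -0.16 had an interval of -0.43 to 0.12 (adjusted p = 0.770). With 1418894_s_at, whose suffix marks probes that may also match other transcripts, it read 6.47, 6.37 and 6.67 in WT and 6.38, 6.74 and 6.79 in IkL/L, a difference of the other sign, 0.13 (interval -0.19 to 0.46, adjusted p = 0.841). With 1449261_at the WT values were 6.09, 6.25 and 6.20 and the IkL/L values 6.08, 5.96 and 6.28, a difference of -0.07 (interval -0.33 to 0.19, adjusted p = 0.90). Over the 6 arrays 1418893_at and 1449261_at had r = 0.82, and 1418894_s_at had r = 0.29 and 0.0058 with them. The same suffix, with the same limit, is on Pbx3 1447640_s_at, Meis2 1457632_s_at and Smad3 1450472_s_at. The brightest probe sets of Sin3a, Trib2 and S100a8 carry it too.

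Pbx3, a PBX gene that takes part with Meis1 and Hoxa9 in leukaemia, was above the array medians with both probe sets. Probe set 1447640_s_at read 7.66, 7.44 and 7.21 in WT and 7.25, 7.67 and 7.51 in IkL/L. Both groups covered almost the same range, and the difference of 0.04 had an interval of -0.31 to 0.39 (adjusted p = 0.966). Probe set 1421193_a_at read 6.17, 5.59 and 5.79 in WT and 5.82, 6.18 and 5.60 in IkL/L, again with the same range, and differed by 0.02 (interval -0.42 to 0.46, adjusted p = 0.989). On the linear scale these intervals run from 0.805 to 1.31 and from 0.746 to 1.37 of WT.

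Pbx4, known chiefly from testis, was under the array medians on all 6 arrays. Its probe set 1449916_at read 4.50, 4.54 and 4.60 in WT and 4.33, 4.53 and 4.54 in IkL/L, and 1454912_at read 4.09, 4.25 and 4.17 in WT and 4.18, 4.25 and 4.16 in IkL/L. The groups overlapped in both, with differences of -0.08 (interval -0.31 to 0.15) and 0.02 (interval -0.19 to 0.24). As with Meis2, these readings show no level of the gene.

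Pknox1 (Prep1), whose product dimerises with PBX and is required for normal haematopoiesis, had 3 probe sets above the array medians. Probe set 1437470_at read 8.79, 8.18 and 8.47 in WT and 8.29, 8.10 and 8.35 in IkL/L. WT 1 and WT 3 were the highest and IkL/L 2 the lowest, with WT 2 inside the IkL/L range, and the difference of -0.23 had an interval of -0.61 to 0.14 (adjusted p = 0.747). After Meis2 1417129_a_at this was the largest difference among the 21. Probe set 1450172_at read 6.40, 5.15 and 6.40 in WT and 5.85, 5.89 and 6.24 in IkL/L, with WT 2 far below the other 5 arrays, an SD of 0.72 in WT and a difference of 0.01 (interval -0.73 to 0.75, adjusted p = 0.997). Probe set 1421233_at read 5.09, 5.01 and 5.32 in WT and 4.98, 4.82 and 5.65 in IkL/L, where IkL/L 3 was the highest and IkL/L 2 the lowest, and differed by 0.01 (interval -0.47 to 0.49, adjusted p = 0.995). It was little above the array medians, on IkL/L 2 at 4.8247 against a median of 4.8184.

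Pknox2, a paralogue better known from brain, was under the array medians on all arrays with both probe sets. With 1428017_at it read 4.15, 4.37 and 4.15 in WT and 4.11, 4.36 and 4.20 in IkL/L, and with 1433907_at 4.10, 3.98 and 3.95 in WT and 3.91, 3.87 and 3.98 in IkL/L. The differences were -0.0012 (interval -0.26 to 0.26) and -0.09 (interval -0.31 to 0.13).

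Tgif1, the TALE repressor of retinoid and TGF-beta targets, had 1 probe set, 1422286_a_at, which read 6.92, 6.56 and 7.21 in WT and 6.99, 6.69 and 7.10 in IkL/L. The IkL/L values lay inside the WT range, and the difference of 0.03 had an interval of -0.38 to 0.45 (adjusted p = 0.977).

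**Figure D4:**
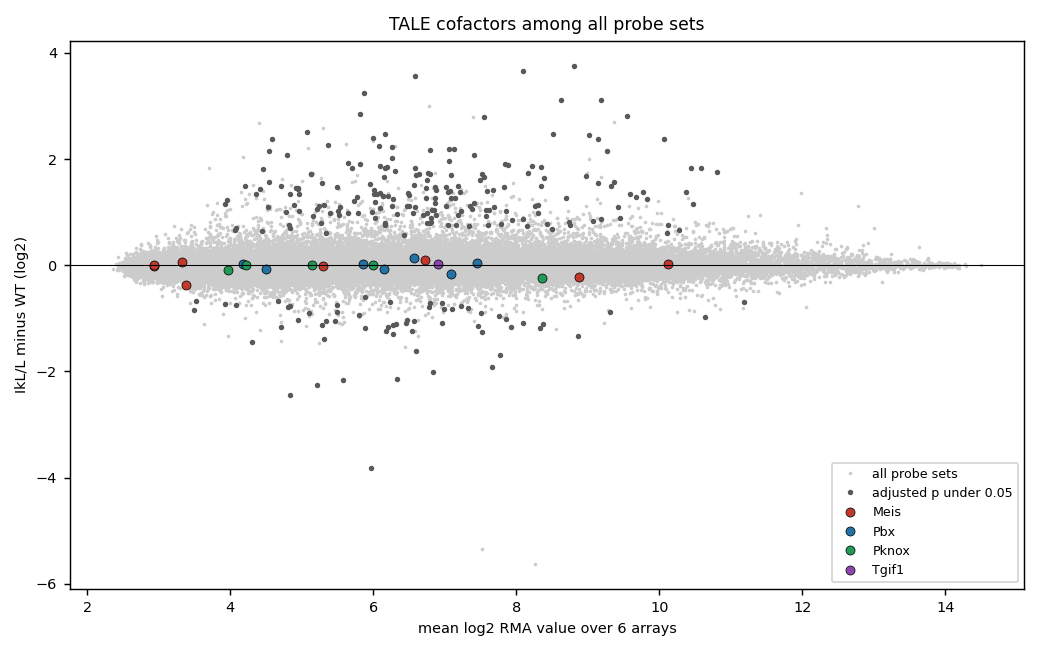
Mean log2 RMA value over the 6 arrays (horizontal axis) and difference between IkL/L and WT in log2 (vertical axis) for all 45037 probe sets (light grey), those with an adjusted p under 0.05 (dark grey) and the TALE probe sets (coloured by family). The TALE probe sets lie between -0.38 and 0.13 at mean values from 2.93 to 10.12.

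The genes that work with the TALE cofactors were read from the brightest single-gene probe set of each. Of 66 measured genes in 6 lists, 0 rose and 1 fell, Hoxa10, against the 0.989% of all genes that passed. The groups did not overlap for 14 of the 66, 3 higher and 11 lower in IkL/L, where 17.2% of all genes were separated and 9.59% were separated and lower. An unadjusted p under 0.05 was found for 12 of the 66, where 11.2% of all genes had one. Lists were chosen with earlier results of these arrays known, and their counts are a description.

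Of the Hox partners, the homeodomain proteins that bind DNA with MEIS and PBX, 28 of 32 were measured, with a median difference of -0.03. Hoxa10, which acts in progenitors and in megakaryocyte and myeloid cells, read 5.23, 5.15 and 5.28 in WT and 4.50, 4.49 and 4.34 in IkL/L. All IkL/L values lay under their array medians and all WT values above them, and the measured fall of 0.78 passed the threshold (adjusted p = 0.0175). Since the IkL/L arrays read at background, this value does not give the size of the change. With 1 array left out the difference stayed between -0.81 and -0.73, but it no longer passed without WT 1 (adjusted p = 0.104) or without IkL/L 1, 2 or 3 (adjusted p = 0.0854, 0.0627 and 0.0573). A second probe set of Hoxa10 was at background on all arrays and could show no fall. Hoxa9, the main partner of Meis1, read 11.84, 11.83 and 11.99 in WT and 11.39, 11.49 and 11.30 in IkL/L, a separated difference of -0.50 that did not pass (interval -0.73 to -0.27, adjusted p = 0.108). Its other probe set differed by -0.06. Hoxb5, a gene of long-term stem cells, read 4.013, 4.013 and 4.002 in WT and 4.69, 5.21 and 4.10 in IkL/L, a difference of 0.66 (adjusted p = 0.468). Only IkL/L 2 was above its array median, and without it the difference was 0.39.

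Of the Meis1-dependent genes, 8 of 8 were measured and 0 passed, with a median difference of 0.15. Flt3, the receptor of lymphoid-primed progenitors, read 10.97, 10.79 and 10.31 in WT and 9.56, 10.05 and 9.80 in IkL/L, separated but not past the threshold (-0.88, interval -1.33 to -0.44, adjusted p = 0.132). Without WT 3 it passed (-1.07, adjusted p = 0.0442). With any other single array left out it did not pass (-1.01 to -0.74, adjusted p from 0.186 to 0.452). Trib2, a pseudokinase that acts in leukaemia, read 6.12, 5.95 and 6.35 in WT and 7.04, 7.38 and 6.24 in IkL/L, a difference of 0.75 (adjusted p = 0.445). Pf4, a platelet chemokine, read 10.14, 10.20 and 10.75 in WT and 10.72, 11.08 and 10.87 in IkL/L, a difference of 0.53 (adjusted p = 0.408). Pf4 is also one of 5 megakaryocyte markers, 4 of which were above the array medians on all arrays. The mean over the 5 was 7.20 to 7.85 in WT and 7.74 to 8.19 in IkL/L. Itga2b differed by 0.86 with the groups separated (adjusted p = 0.118), Gp1bb by 0.48, Gp9 by 0.21 and Ppbp by -0.28. The part of megakaryocytes in the Pf4 value was not tested.

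The MLL-menin complex and its cofactors maintain transcription of Hoxa9 and Meis1, and 0 of 9 genes passed, with a median difference of -0.16. Aff1, an elongation factor and fusion partner of MLL, differed by 0.29 (adjusted p = 0.391). Psip1, which tethers the complex to chromatin, differed by -0.30 (adjusted p = 0.607), and Kmt2a, the MLL methyltransferase itself, by -0.24 (adjusted p = 0.623). Groups were separated for these 3 of the 9, 1 higher and 2 lower, against 17.2% of all genes. They overlapped in the other probe sets of the 3 genes. Those of Psip1 differed by -0.32 and -0.08 and that of Kmt2a by -0.13. Those of Aff1, under the array medians, differed by -0.15 and 0.10. Pbxip1, which binds PBX proteins, read 8.53, 8.24 and 8.12 in WT and 8.04, 8.42 and 8.12 in IkL/L and differed by -0.10 (adjusted p = 0.890).

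Among TGF-beta signalling genes and corepressors, through which Tgif1 acts, 0 of 13 passed and the median difference was -0.04. Smad7, the inhibitory SMAD, read 8.29, 7.90 and 7.98 in WT and 7.53, 7.75 and 7.44 in IkL/L, a separated difference of -0.49 (adjusted p = 0.289), and its second probe set was separated in the same direction at -0.81 (adjusted p = 0.0962). Sin3a, a corepressor scaffold, differed by -0.34 (adjusted p = 0.499), whereas its other probe sets differed by 0.19 and 0.00022. Smad3, a receptor-activated SMAD, differed by -0.26 (adjusted p = 0.565). Its probe set 1450472_s_at, under the array medians on all arrays, differed the other way by 0.39 (interval 0.05 to 0.74, adjusted p = 0.497). Probe set 1450471_at, under the medians on most arrays, differed by -0.04. Readings at background give no level of the gene.

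The remaining TALE genes, Irx1 to Irx6 and Mkx, belong to other subfamilies and are not known as Hox cofactors. None of the 7 was above the array medians on all arrays and 0 passed. Irx1 differed by -0.27, Irx4 by 0.20 and Irx5 by -0.15, with adjusted p of 0.540, 0.701 and 0.80.

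**Figure D5:**
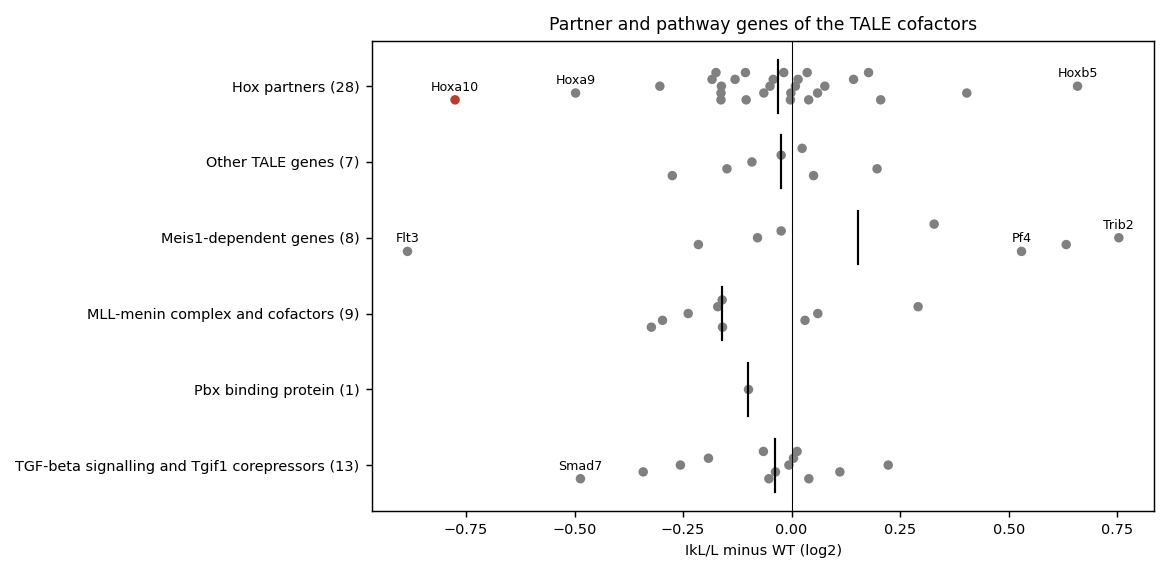
Difference between IkL/L and WT (horizontal axis, log2) of each measured partner or pathway gene, 1 point a gene, by list (number of genes in parentheses), with the list's median as a black bar and the gene past an adjusted p of 0.05 in red. Hoxa10 is the only red point. Flt3, Hoxa9 and Smad7 lie at -0.88, -0.50 and -0.49 without passing. Trib2, Hoxb5, Epas1 and Pf4 lie on the other side at 0.75, 0.66, 0.63 and 0.53, also without passing.

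The genes most like Meis1 over the 6 arrays, by Pearson's r with probe set 1450992_a_at among 11277 genes of at least median intensity, were Nbeal1 (r = 0.996), Mbd6 (r = 0.991) and Gripap1 (r = 0.979). Like Meis1 they read lowest on WT 2 and next lowest on IkL/L 3: Nbeal1, for example, read 7.56, 7.06 and 7.47 in WT and 7.44, 7.50 and 7.14 in IkL/L. In all, 137 of the 11277 genes had r above 0.9, and the likeness is a description of shared arrays with no test.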

How the data were processed

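The authors deposited 1 table of log2 values made with RMA, which corrects background, gives every array 1 shared distribution of values and reduces the probes of a set to 1 value. Per the labels the software was RMA and R 2.8, and the study's methods state that the LSK arrays were normalized together with thymocyte arrays. The shared distribution removes any change in total RNA. Gene names came from the platform annotation, which ties 34945 probe sets to 1 gene and 932 to several and leaves out 9160. Symbols were updated by Entrez number through RefSeq (GRCm38.p6) for 34741. Differences were fitted over all 45037 probe sets in R 4.3.3 by limma 3.58.1, using lmFit and eBayes with genotype as sole term and two-sided p-values, Benjamini-Hochberg adjustment over all of them and a threshold of 0.05. The study names no test for these arrays. The fit was tested on simulated data. The members, the gene lists and the rule for named genes (every TALE probe set, and of each list those that passed or the 3 with the smallest p) were chosen with earlier results of these data known. Depth has no meaning for arrays, and 3 arrays a group limit the precision. Alternatives were a second quantile normalization, median centring, array weights, a robust fit with an intensity trend, filters that drop dim probe sets, a replicate block, averaging the probe sets of a gene and leaving out arrays.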

Additional observations from a re-analysis of the deposited data

How the results depend on the processing

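No TALE probe set that was tested passed the adjusted threshold under any alternative, and none did read by gene, which was not run without both WT 1 and WT 2. All 21 probe sets and 9 genes were tested, except that 13 probe sets of 6 genes were left by the filter at the median mean and 9 of 5 genes by the filter at a mean of 6, and the smallest adjusted p of a TALE probe set was 0.0884. Differences of 15 probe sets, all of at most 0.21 in size as reported, took the other sign in 45 of the 254 alternative values, and the cause was not tested. With array weights Meis1 1450992_a_at gave -0.0102, Pbx3 1421193_a_at -0.0791, Pbx3 1447640_s_at -0.0563, Pknox1 1421233_at -0.0358 and Pknox1 1450172_at -0.19. After a second quantile normalization Meis2 1440091_at gave 0.0008, Pbx3 1421193_a_at -0.0022 and Pknox2 1428017_at 0.0169, and with median centring Meis3 gave 0.0012 and Pknox2 1428017_at 0.0157. Without both WT 1 and WT 2, which leaves 1 WT array and was chosen after seeing the data, Meis1 1443260_at gave 0.68 and 6 of all probe sets passed. Leaving out 1 array at a time gave -0.12 to 0.14 for Meis1 1450992_a_at, -0.66 to 0.0307 for Meis1 1443260_at, -0.12 to 0.43 for Meis1 1459423_at, -0.0932 to 0.0345 for Meis2 1440091_at, -0.0039 to 0.11 for Meis2 1447861_x_at, -0.0745 to 0.14 for Meis2 1457632_s_at and -0.0929 to 0.0894 for Meis3. It gave -0.16 to 0.0003 for Pbx2 1449261_at, -0.14 to 0.18 for Pbx3 1421193_a_at, -0.0740 to 0.15 for Pbx3 1447640_s_at, -0.0170 to 0.0674 for Pbx4 1454912_at and -0.21 to 0.0162 for Pbxip1. It gave -0.24 to 0.17 for Pknox1 1421233_at, -0.41 to 0.22 for Pknox1 1450172_at, -0.0711 to 0.0697 for Pknox2 1428017_at and -0.13 to 0.19 for Tgif1.

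Of all probe sets 251 passed, and 57 to 287 with 1 array left out: 57 without WT 1, 143 without WT 2, 67 without IkL/L 1, 142 without IkL/L 2 and 191 without IkL/L 3. The count of pathway genes, 1 in the fit as reported, was 0 to 2 with 1 array left out, 0 with the filter at a mean of 6 (which drops Hoxa10), 0 when the probe sets of a gene were averaged and 2 with an intensity trend and robust moderation together, where Hoxa9 joined (adjusted p = 0.0421). The sample titles number the WT and IkL/L replicates but do not say whether the numbers pair them. Deviations of same-numbered samples from their group means correlated at 0.01, -0.11 and 0.08. Those of differently numbered samples correlated at -0.13 to 0.12, a range that holds the same-numbered values. With 3 arrays a group, the deviations sum to 0 within each group, which ties these correlations to one another. Whether same-numbered samples were handled together was not tested. With the replicate number as a block, 143 of all probe sets, 0 pathway genes (Hoxa10 adjusted p = 0.0805) and 0 TALE probe sets passed. Values under the array medians, those of Meis2, Pbx4 and Pknox2, cannot be told from background, and a change there may not be visible.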
